A study of Bos taurus with 16 samples.

Results

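The insulin-like growth factor (IGF) and insulin axis was examined in round and sirloin muscle of newborn Hanwoo calves whose dams were fed to requirement or overfed. The 10 genes described are the ligands IGF1 (NCBI gene ID 281239) and IGF2 (281240), the receptors IGF1R (281848), IGF2R (281849) and INSR (408017), the adaptor IRS1 (538598), and the binding proteins IGFBP3 (282261), IGFBP4 (282262), IGFBP5 (404185) and IGFBP6 (404186). They were chosen by name, as rows of the gene tables whose identifier carries 1 of these symbols. All 10 were matched among the 34109 genes listed, and all 10 passed the filter of at least 1 read in the libraries compared.

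IGF1 and IGF2 act mainly through the tyrosine kinase receptor IGF1R, and INSR, the insulin receptor, also binds IGF2. IRS1 links these receptors to PI3K, AKT and mTOR, which promote protein synthesis and glucose uptake in muscle. IGF2R has no kinase domain and carries IGF2 to the lysosome, while the IGF binding proteins hold the ligands outside the cell. IGF2 is an imprinted gene and the main IGF of fetal life, and it has a known part in the differentiation of muscle cells.

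RNA was sequenced from both muscles of 8 male Hanwoo (Bos taurus) calves, giving 16 libraries in 4 groups of 4. The dams of the 4 control calves are described as fed 100% of their nutritional requirement, and those of the 4 treated calves 150% from mid pregnancy to birth. By the intakes stated in the paper, treated dams received less than 150% of the dry matter of control dams. Muscle was taken just after birth, before colostrum, and both muscles of a calf carry the same number in the labels. Each calf is 1 biological replicate, so a muscle comparison has 8 pairs and a diet comparison has 4 calves against 4.

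Libraries held 44473011 to 72446933 counted reads, and the counts of the 10 genes ran from 70 to 83498 per library. The label of skeletal muscle was borne out, since 8 muscle fibre genes (among them ACTA1, CKM and TNNT3) summed to between 45900 and 83900 transcripts per 1000000 (TPM, a level per gene length) in every library. Sirloin of treated replicate 4 stood apart. Its 5 adipocyte markers (ADIPOQ, PLIN1, CIDEC, LEP, FABP4) summed to 3780 TPM against 0.73 to 15.0 in the other 15 libraries, and its endothelial markers to 171 TPM. Round of control replicate 2 also stood apart, with 7 fibroblast markers at 1550 TPM against 254 to 410 TPM in the other round libraries. Sirloin of the same calf had 471 TPM and sirloin of treated replicate 4 had 646 TPM of fibroblast markers, against 162 to 265 TPM in the remaining sirloin libraries. The TPM values of control replicate 2 summed to 1000000 in both muscles, whereas the other 14 libraries summed to 999756 to 999858, and this calf had the most reads in each muscle. Treated replicate 2 had the highest immune markers (6 genes) in both muscles, at 49.0 TPM in round and 82.1 TPM in sirloin against 6.31 to 28.9 TPM in the other 14 libraries. It also had the highest satellite cell markers, summed over MYF5, CALCR and VCAM1. In round the sum was 14.8 TPM against 1.75 to 3.74 TPM in the other round libraries. The gap was smaller in sirloin, at 5.45 TPM against 1.18 to 4.38 TPM. PAX7, a further satellite cell marker, was not matched by its symbol and is not in these sums. In whole muscle, fewer cells of a type and less RNA per cell cannot be told apart.

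IGF2 was the most abundant of the 10 transcripts in all 16 libraries, with a median of 411 TPM and a range of 171 to 637 TPM. IGF1, the other ligand, was the least abundant of the 10 by median, at 1.60 TPM with a range of 0.704 to 10.1 TPM. Within a library the IGF2 level was 48.7 to 558 times the IGF1 level, with a median ratio of 222. IGF2 supplied 45.3% to 73% of the summed TPM of the 10 genes. The lowest ratio, 48.7, was in sirloin of treated replicate 4, the library rich in adipocyte markers.

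IGF2R followed IGF2 with a median of 72.1 TPM (28.7 to 125), and it exceeded IGFBP3 in 13 of 16 libraries. INSR had a median of 20.2 TPM (7.97 to 40.8) and IGF1R 18.5 TPM (5.46 to 31.9). The ranges of these neighbours overlapped widely, although INSR exceeded IGF1R in 14 of 16 libraries. The INSR to IGF1R ratio had a median of 1.28 in round (0.66 to 1.46) and of 1.62 in sirloin (1.07 to 2.17). The IGF2R to IGF1R ratio ran from 2.25 to 13.2, so every library held more transcript of the scavenging receptor than of the signalling one. IRS1 was low, with a median of 5.66 TPM (2.3 to 13.7).

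Among the binding proteins, IGFBP3, the main carrier of IGFs in blood, had the highest median at 35.9 TPM (14.1 to 80.3). IGFBP6, which prefers IGF2 to IGF1, had a median of 28.6 TPM (11.8 to 153), and IGFBP3 exceeded it in only 10 of 16 libraries. IGFBP5, the binding protein best known from muscle cell differentiation, had a median of 10.1 TPM and a range of 1.81 to 74.9 TPM. IGFBP4 had a median of 2.99 TPM (1.13 to 27.2). From IGFBP3 down to IGF1 the ranges of all neighbours in the order overlapped, and IGF1R exceeded IGFBP5 in only 8 of 16 libraries. The 4 binding proteins together ranged from 49.5 TPM in sirloin of control replicate 1 to 280 TPM in round of control replicate 2, the library rich in fibroblast markers.

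**Figure D1:**
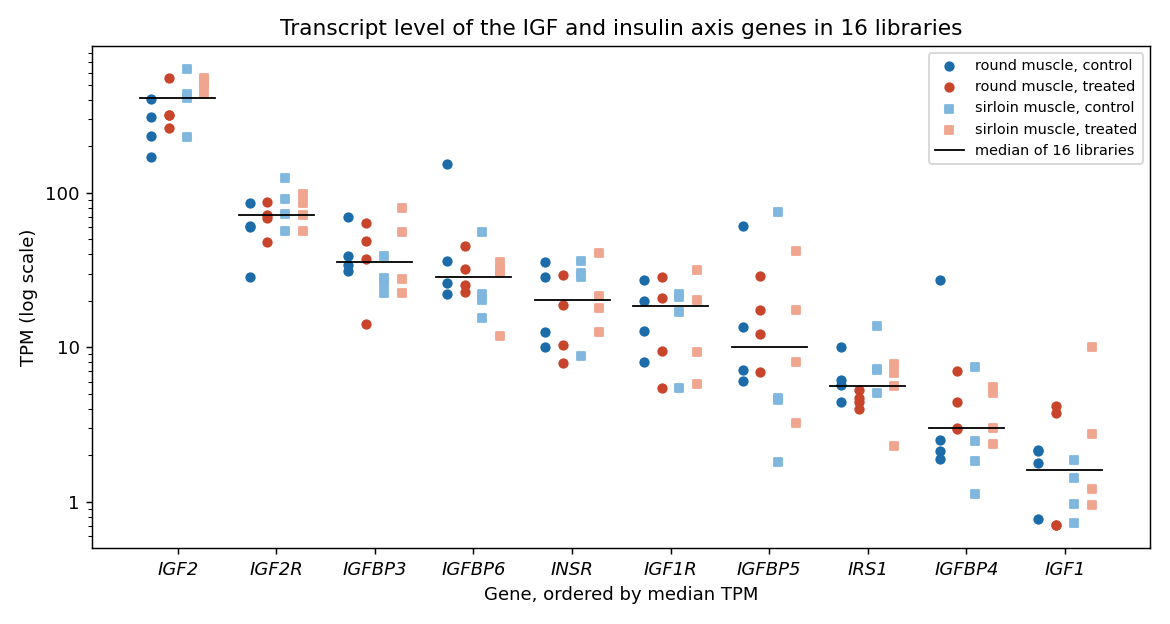
TPM of each gene (log axis) in the 16 libraries, with circles for round and squares for sirloin, blue for control and red for treated calves, and a bar at the median. IGF2 lies between 171 and 637 TPM, above the other 9 genes in each library, and IGF1 lies lowest of the 10 by median at 1.60 TPM.

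The ligands were compared between libraries as counts per 1000000 reads (CPM) after TMM scaling, which suits comparisons within a gene. IGF2 in round measured 674, 946, 467 and 888 CPM in control replicates 1 to 4 and 820, 1270, 814 and 683 CPM in treated replicates 1 to 4. In sirloin it measured 1230, 1030, 615 and 1600 CPM in the controls and 1030, 1240, 1240 and 1160 CPM in the treated calves. The diet groups overlapped in both muscles, and control replicate 3 had the lowest value in each. Treated minus control was 0.29 on the log2 scale in round (SE 0.3, 95% interval -0.37 to 0.94) and 0.06 in sirloin (SE 0.267, -0.53 to 0.65). Neither passed edgeR's quasi-likelihood test (adjusted p = 0.916 and 1 after Benjamini-Hochberg correction over all genes).

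IGF1 in round measured 8.47, 7.99, 3.64 and 10.2 CPM in the controls and 2.87, 14.2, 2.79 and 16.1 CPM in the treated calves. Sirloin held 4.57, 7.65, 3.03 and 5.61 CPM in the controls and 4.85, 9.86, 3.65 and 39.6 CPM in the treated calves. The treated round libraries lay on both sides of the control range, 2 above and 2 below it, and in sirloin treated replicate 4 stood far above the other 7 libraries. The treated minus control difference was 0.26 in round (SE 0.567, -0.98 to 1.5). It was 1.45 in sirloin (SE 0.665, -0.02 to 2.92; adjusted p = 0.876 by edgeR) and 0.23 without treated replicate 4. Sirloin of treated replicate 4 was the library with 3780 TPM of adipocyte markers, and the part of these cells in the IGF1 value was not tested.

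For both kinase receptors the diet groups overlapped in each muscle. IGF1R in round measured 23.6, 30.0, 75.7 and 57.9 CPM in control replicates 1 to 4 and 24.5, 65.4, 53.9 and 14.4 CPM in treated replicates 1 to 4. Its sirloin values were 49.2, 13.7, 59.3 and 53.6 CPM in the controls and 13.8, 45.5, 74.7 and 22.3 CPM in the treated calves. Within each of the 4 groups IGF1R spanned at least 3.21-fold. INSR in round measured 62.4, 62.3, 202 and 172 CPM in the controls and 57.0, 88.1, 158 and 43.1 CPM in the treated calves. Its sirloin values were 172, 46.0, 206 and 161 CPM in the controls and 62.7, 98.2, 198 and 90.7 CPM in the treated calves. The treated minus control difference of INSR was -0.51 in round (SE 0.475, -1.55 to 0.53) and -0.38 in sirloin (SE 0.453, -1.38 to 0.62). That of IGF1R was -0.22 in round (-1.27 to 0.82) and -0.17 in sirloin (-1.35 to 1.01). IGF2R was steadier, at 177 to 531 CPM in round and 283 to 667 CPM in sirloin, with diet differences of 0.12 (-0.59 to 0.84) and -0.32 (-0.91 to 0.28).

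IRS1, the adaptor below both kinase receptors, had the smallest unadjusted p of the 10 genes for diet in round muscle. It measured 36.8, 52.6, 37.5 and 28.3 CPM in the round controls and 30.5, 20.3, 26.6 and 25.5 CPM in the treated calves. Of the treated values only treated replicate 1 lay inside the control range, above control replicate 4. In sirloin IRS1 measured 44.4, 75.6, 43.0 and 28.2 CPM in the controls and 40.7, 11.3, 35.2 and 29.4 CPM in the treated calves. The difference was -0.57 in round (SE 0.246, -1.11 to -0.03) and -0.72 in sirloin (SE 0.393, -1.58 to 0.15). By edgeR's test the unadjusted p was 0.0399 in round, but the adjusted p was 0.864, and in sirloin they were 0.0969 and 0.876. Without treated replicate 2, the calf with the highest immune markers and the least IRS1, the differences were -0.48 and -0.45. Both kept their sign when any calf was left out, from -0.69 to -0.42 in round and from -0.93 to -0.41 in sirloin.

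For the binding proteins the diet difference often rested on control replicate 2. IGFBP4 in round measured 3.03, 31.3, 2.57 and 3.58 CPM in the controls and 8.93, 3.35, 5.55 and 3.84 CPM in the treated calves. Control replicate 2 was about an order of magnitude above the other controls, and its difference of -0.88 (SE 0.746, -2.51 to 0.75) became 0.82 without that calf. IGFBP6 in round measured 14.6, 81.6, 22.6 and 17.4 CPM in the controls and 26.6, 16.9, 15.1 and 13.8 CPM in the treated calves. The same calf was highest, and the difference of -0.88 (SE 0.504, -1.99 to 0.22) became -0.02 without it. Round of control replicate 2 had 1550 TPM of fibroblast markers, and the part of these cells in both values was not tested. In sirloin the diet differences were 0.16 for IGFBP4 and -0.22 for IGFBP6, and without control replicate 2 they became 0.95 and 0.31.

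IGFBP5 measured 58.6, 211, 24.7 and 30.5 CPM in round of the controls and 65.8, 96.7, 25.9 and 47.2 CPM in round of the treated calves. In sirloin it measured 19.5, 275, 7.10 and 17.0 CPM in the controls and 144, 26.7, 11.2 and 61.5 CPM in the treated calves. Control replicate 2 had the highest value in both muscles and control replicate 3 the lowest. The diet difference was -0.44 in round (SE 0.622, -1.80 to 0.92) and -0.39 in sirloin (SE 1.07, -2.74 to 1.96), and these became 0.63 and 2.06 without control replicate 2. IGFBP3 measured 116, 52.7, 49.0 and 56.3 CPM in round of the controls and 20.9, 49.1, 70.7 and 95.1 CPM in round of the treated calves. In sirloin it measured 45.5, 31.8, 59.5 and 36.9 CPM in the controls and 30.0, 35.4, 74.3 and 109 CPM in the treated calves. The IGFBP3 difference was -0.20 in round (-1.12 to 0.72) and 0.50 in sirloin (-0.35 to 1.36), the latter becoming 0.11 without treated replicate 4.

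None of the 10 genes was called for diet in either muscle at an adjusted p under 0.05 by edgeR. Over all genes the test called 4 of 21677 (0.0185%) in round and 2 of 21776 (0.00918%) in sirloin, so few genes of any kind passed. By direction, 0.00461% of genes were higher and 0.0138% lower in treated round, and 0.00459% were higher and 0.00459% lower in treated sirloin. At an unadjusted p under 0.05 the test gave 1 of the 10 (IRS1) in round, beside 4.41% of all genes, and 0 of the 10 in sirloin, beside 3.91% of all genes. DESeq2 called none of the 10 in either muscle. It gave 1 with an unadjusted p under 0.05 in each, without a DESeq2 share over all genes to set beside it. No gene of the 10 had control and treated values that did not overlap, a pattern found in 1.76% of all genes in round and 1.68% in sirloin. In round 3 of the 10 differences were above 0 and 7 below, with a median of -0.33 against 0.02 for all genes. In sirloin 4 were above and 6 below, with a median of -0.19 against 0.03. The intervals still allowed diet differences of over 1 log2 unit in at least 1 direction for 8 of the 10 genes in round, the exceptions being IGF2 and IGF2R.

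**Figure D2:**
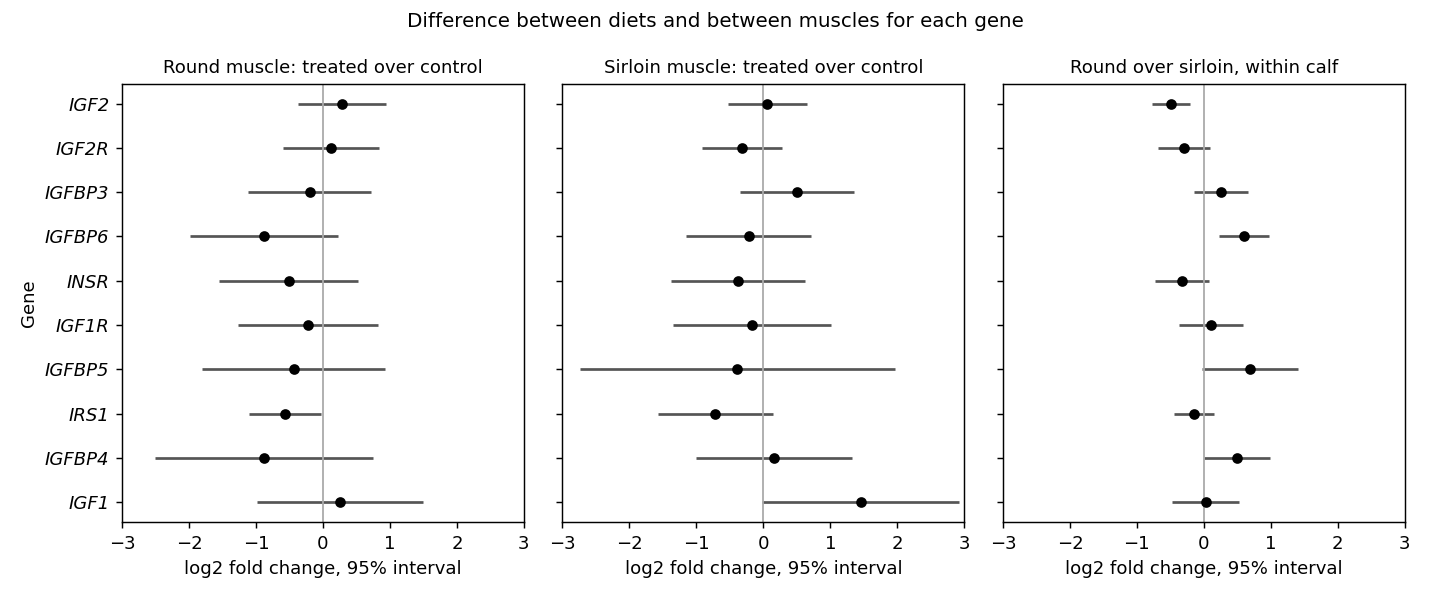
Log2 fold change (point) and 95% interval (line) of each gene for treated over control in round, treated over control in sirloin, and round over sirloin within calf. The diet intervals are wide, up to -2.74 to 1.96 for IGFBP5 in sirloin, and only that of IRS1 in round lies on 1 side of 0. In the within-calf comparison the intervals of IGF2 (-0.77 to -0.20) and IGFBP6 (0.22 to 0.97) lie on 1 side of 0, and that of IGFBP4 just does.

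The muscles of 1 calf were then compared, with the calf as a block. IGF2 was lower in round than in sirloin in 7 of 8 calves, the exception being treated replicate 2 with 1270 CPM in round and 1240 CPM in sirloin. The difference was -0.49 on the log2 scale (SE 0.131, -0.77 to -0.20), that is 1.4-fold more IGF2 in sirloin. It did not pass edgeR's quasi-likelihood test after correction (unadjusted p = 0.00266, adjusted p = 0.131), whereas DESeq2 with the same block gave an adjusted p of 0.00536. Over all alternatives the adjusted p ran from 0.00536 to 0.727, the highest without the calf block, and the difference ran from -0.56 to -0.43 when 1 calf was left out.

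The binding proteins had the opposite sign. IGFBP6 was higher in round in 6 of 8 calves, with a difference of 0.60 (SE 0.174, 0.22 to 0.97; adjusted p = 0.172 by edgeR and 0.0288 by DESeq2). Treated replicates 2 and 4 were the exceptions, with 16.9 and 13.8 CPM in round and 18.1 and 16.7 CPM in sirloin. Without treated replicate 4 the IGFBP6 difference was 0.72 and its adjusted p 0.0462 by edgeR. In that setting edgeR also called more genes over the whole table than with all calves. Over all alternatives the adjusted p of IGFBP6 ran from 0.0288 to 0.739. IGFBP4 was higher in round in 7 of 8 calves (0.50, SE 0.226, 0.01 to 0.99; adjusted p = 0.435). Its largest gap was in control replicate 2, with 31.3 CPM in round and 9.18 CPM in sirloin, and without that calf the difference was 0.32. IGFBP5 was higher in round in 5 of 8 calves (0.69, SE 0.331, -0.03 to 1.40; adjusted p = 0.476), and IGFBP3 had a difference of 0.26 (-0.15 to 0.66).

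Markers of other cell types were read beside these differences. The fibroblast markers (COL1A1, COL3A1, DCN, DPT, FBLN1, LUM and PDGFRA) summed to 254 to 1550 TPM in round and 162 to 646 TPM in sirloin. Of these 7 genes 5 were above 0 for round over sirloin, with a median of 0.30, and none passed edgeR's test (lowest adjusted p = 0.0947). ACTA2, a smooth muscle actin and marker of smooth muscle and pericytes, was the only marker gene that passed (0.69 higher in round, SE 0.134, adjusted p = 0.0423 by edgeR, higher in 8 of 8 calves). Of all genes 0.267% passed as higher in round, and 2.5% had 1 direction in all 8 calves. All 5 smooth muscle and pericyte markers were above 0 (median 0.21), as were 5 of 6 endothelial (median 0.22), 4 of 6 immune and 2 of 5 adipocyte markers. The part of these cells in the binding protein differences was not tested.

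**Figure D3:**
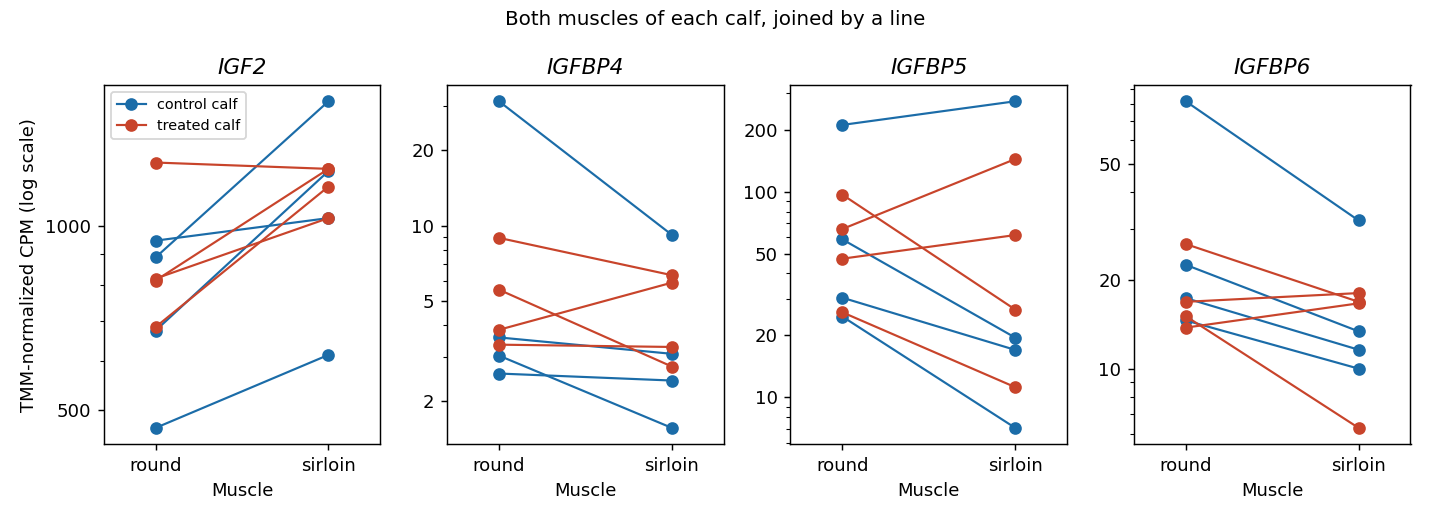
TMM-normalized CPM (log axis) of IGF2, IGFBP4, IGFBP5 and IGFBP6 in round and sirloin, with a line for each calf, blue for control and red for treated. IGF2 is higher in sirloin in 7 of 8 calves, and IGFBP4 and IGFBP6 are lower in sirloin in 7 and 6 of 8 calves.

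None of the receptors, IRS1 or IGF1 passed between the muscles. INSR was lower in round in 6 of 8 calves, with a difference of -0.33 (SE 0.187, -0.73 to 0.08). IGF2R had a difference of -0.30 (-0.69 to 0.09), IRS1 of -0.15 (-0.45 to 0.15) and IGF1R of 0.10 (-0.37 to 0.58). IGF1 had a difference of 0.03 (-0.48 to 0.53), with 5 calves higher in round and 3 higher in sirloin. Of the 10 genes edgeR called 0 at an adjusted p under 0.05, beside 122 of 22877 genes (0.533%). DESeq2 called 2 of the 10 (IGF2 and IGFBP6). Over all genes it also called several times as many as edgeR, so edgeR's share of 0.533% does not apply to these 2. The DESeq2 count over all genes is given with the processing below. At an unadjusted p under 0.05 edgeR gave 3 of the 10 (IGF2, IGFBP4 and IGFBP6), beside 11.2% of all genes. None of the 10 had the same direction in all 8 calves, which 2.5% of all genes had.

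Whether the diet difference itself depended on the muscle was tested as an interaction within calf. IGF1 had the largest value, at -1 on the log2 scale (SE 0.377, -1.83 to -0.18), which means a lower treated minus control difference in round than in sirloin. Its adjusted p was 1 by edgeR, and without treated replicate 4 the value was -0.73. IGFBP3 followed with -0.68 (SE 0.329, -1.40 to 0.03), and the other 8 lay between -0.58 and 0.47. No member was called by edgeR or DESeq2, beside 0.00437% of all genes by edgeR. At an unadjusted p under 0.05 there was 1 member by edgeR, beside 3.78% of all genes. DESeq2 gave 2, and its own share over all genes was not computed here.

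Calves differed from each other far more in some of these genes than in others. The SD of log2 CPM within groups was 1.60 for IGFBP5, more than in 98.3% of the 12315 genes with a mean of at least 1 CPM. IGF1 had 1.12 (above 95.1% of genes), IGFBP4 1.09 (94.6%) and INSR 0.862 (89.2%), and IGF1R lay above 92.5% of genes. The SD of IGFBP4 was 1.69 in round and 1.08 in sirloin of the controls, which hold control replicate 2. It was 0.628 and 0.601 in the treated calves. For IGF1 it was 0.654 and 0.557 in the controls and 1.39 and 1.53 in the treated calves, the last with the library rich in adipocyte markers. IGF2, the most abundant, had 0.423, close to the median of all genes, 0.437. The tightest group of the 40 was IGF2 in treated sirloin, which spanned 1.21-fold.

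To see whether a calf kept its place between muscles, the log2 level in round was correlated with that in sirloin over the 8 calves for each of the 10 genes. The same correlation was computed for all 12315 genes, with a two-sided exact permutation test. IRS1 had the highest correlation of the 10, with r = 0.92 and rho = 0.9 (exact permutation p = 0.00238 and 0.00456). Its r was above that of 96.3% of genes. It remained 0.83 without the 2 calves farthest from the round median. Control replicate 2 had the most IRS1 in both muscles (52.6 and 75.6 CPM) and treated replicate 2 the least (20.3 and 11.3 CPM). Without treated replicate 2 the correlation was 0.95 and without control replicate 2 it was 0.88. The part of the immune and satellite cell markers of treated replicate 2 in its IRS1 level was not tested.

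IGF1 gave r = 0.75 and rho = 0.79 (exact permutation p = 0.0107 and 0.0279), and r = 0.80 without the 2 extreme calves. IGFBP5 gave r = 0.81 and rho = 0.88 (exact permutation p = 0.0139 and 0.00724), and IGFBP4 gave r = 0.79 and rho = 0.81 (exact permutation p = 0.0108 and 0.0218). Both rested in part on the extreme calves, since r without them was 0.50 for IGFBP5 and 0.32 for IGFBP4. IGF2R kept no order, with r = 0.17 and rho = 0.10 (exact permutation p = 0.702 and 0.84) and r = -0.20 without the extreme calves. The remaining 5 genes had r between 0.60 and 0.74, of which IGFBP6 (0.74) and IGF2 (0.66) gave 0.19 and 0.02 without the extreme calves.

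After Benjamini-Hochberg correction over all 12315 genes none of the 10 passed, the lowest being IRS1 at 0.0514 by the exact permutation test. Over all genes 479 (3.89%) passed, and 5 of the 10 had an unadjusted p under 0.05, beside 32.9% of all genes. The median r over all genes was 0.59, so levels in the muscles of a calf were related for many genes in these libraries. With the mean of each diet group removed, r was 0.91 for IRS1, 0.85 for IGF1, 0.83 for IGFBP4 and IGFBP5, and 0.26 for IGF2R.

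**Figure D4:**
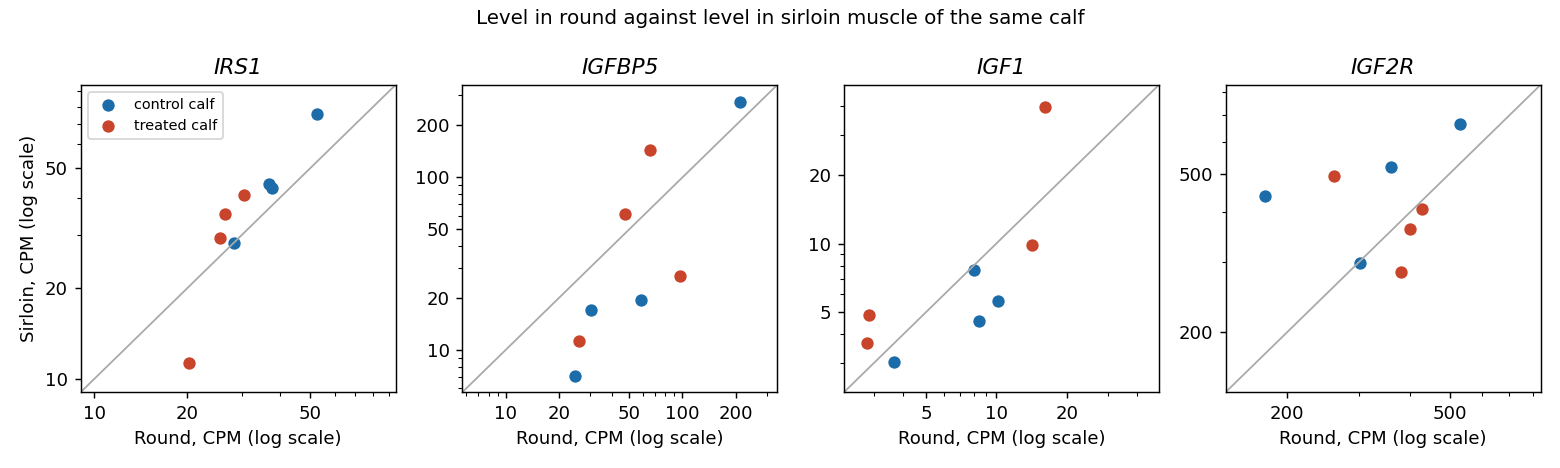
CPM in sirloin against CPM in round (both log axes) for IRS1, IGFBP5, IGF1 and IGF2R, with 1 point per calf, blue for control and red for treated, and a grey line of equal levels. IRS1 points lie in a similar order in both muscles (r = 0.92, rho = 0.9), and IGF2R points do not (r = 0.17, rho = 0.1).

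The genes were also compared with each other over the 8 calves, using the mean of the log2 levels of both muscles, for all 45 pairs. This comparison was chosen after values had been seen. INSR and IGFBP5 were in exactly opposite order. INSR increased in the order of control replicate 2, treated replicates 1, 4 and 2, control replicates 1 and 4, treated replicate 3 and control replicate 3, from 5.74 to 7.67 log2 CPM. IGFBP5 decreased over the same order of calves from 7.91 to 3.73 log2 CPM. Pearson's r was -0.93 and Spearman's rho -1.0 (exact permutation p = 0.000124 and 4.96e-05, the latter the smallest that 8 calves can give).

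The correlation of INSR and IGFBP5 was -0.95 without the 2 calves of most extreme INSR, -0.95 with diet means removed, and -0.97 to -0.91 when any calf was left out. It was -0.97 in sirloin alone and -0.65 in round alone (exact permutation p = 4.96e-05 and 0.0815). Of 12314 other genes, 90 (0.731%) were at least as strongly correlated with INSR. After correction over these genes the pair did not pass (adjusted p = 0.111 by the exact permutation test), nor did any other gene (0 of 12314, with 17% at an unadjusted p under 0.05). The calf with the lowest INSR and highest IGFBP5, control replicate 2, was also the calf with the most reads and, in round, the highest fibroblast markers, whose part was not tested. Without it r was -0.96.

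INSR and IGF1R had like orders over the calves, with r = 0.93 and rho = 0.88 (exact permutation p = 0.00637 and 0.00724; adjusted p = 0.152 over all genes). Their r was 0.90 in round alone, 0.94 in sirloin alone and 0.90 without the 2 extreme calves. Control replicates 3 and 4 and treated replicate 3 had the highest INSR means. Control replicate 2 and treated replicates 1 and 4 had the lowest means of both receptors. Both diets were therefore present at both ends.

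**Figure D5:**
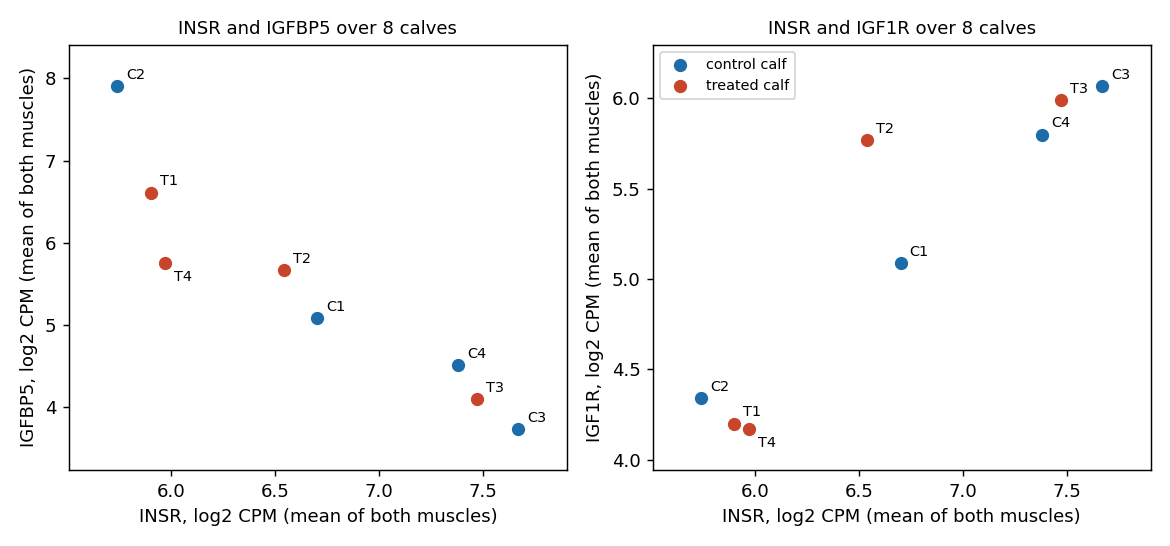
Mean log2 CPM of both muscles for IGFBP5 (left) and IGF1R (right) against INSR, with 1 point per calf labelled C for control or T for treated and its replicate number. IGFBP5 decreases at each step as INSR increases (rho = -1.0), and IGF1R is low in C2, T1 and T4 and high in C3, C4 and T3.

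A further 77 genes of the axis, in 10 lists from the growth hormone arm to glucose transport, were read from the same fits. Between the muscles 3 of the 76 tested passed edgeR's test, all lower in round, and 0 were higher, beside 0.267% of all genes in each direction. At an unadjusted p under 0.05 edgeR gave 26 of the 76, beside 11.2% of all genes. DESeq2 with the same block called 11 of the 76. Over all genes it called several times as many as edgeR, so the shares above, which are edgeR's, do not apply to these 11. Of these, 8 were lower in round (CISH, PIK3R1, EIF4EBP1, GHR, STAT5B, NR3C1, FOXO3 and TBC1D4) and 3 were higher (PTPN1, GSK3B and IGFALS, the last close to 0 TPM in most libraries). Each of the 3 genes that edgeR called was lower in round in 8 of 8 calves. CISH, a growth hormone-induced inhibitor of STAT5 signalling, measured 38.7, 19.7, 17.6 and 9.48 CPM in round of the controls and 48.8, 38.3, 35.0 and 3.61 CPM in round of the treated calves. Sirloin held 58.3, 31.1, 49.1 and 42.1 CPM in the controls and 80.6, 104, 74.7 and 9.01 CPM in the treated calves. The difference was -1.18 (SE 0.163; adjusted p = 0.00793 by edgeR), and it held when any calf was left out (-1.26 to -1.04). Treated replicate 4 had the lowest CISH in both muscles, although its own muscles differed in the same direction.

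PIK3R1, the regulatory subunit of PI3K that binds IRS1, measured 52.0 to 209 CPM in round and 131 to 587 CPM in sirloin. Its difference was -0.90 (SE 0.163; adjusted p = 0.0314 by edgeR). EIF4EBP1, the translation repressor that mTOR inactivates, measured 44.1 to 230 CPM in round and 77.7 to 549 CPM in sirloin. Its difference was -0.68 (SE 0.13; adjusted p = 0.0401 by edgeR). The 2 muscles overlapped in range for both genes, and the highest sirloin value of both was in treated replicate 2. Of the 8 calves, leaving out 5 ended the PIK3R1 call and leaving out 6 ended the EIF4EBP1 call, with adjusted p up to 0.123 and 0.147, while the differences stayed between -1.03 and -0.82 and between -0.75 and -0.60. All 3 genes passed with a filter on low counts (adjusted p = 0.00991, 0.0345 and 0.0391 by edgeR) and by DESeq2, and none passed without the calf block.

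GHR, the growth hormone receptor, and STAT5B, its transcription factor, were lower in round by -0.57 (SE 0.15) and -0.50 (SE 0.139), with adjusted p of 0.127 and 0.149 by edgeR, and both were among the genes that DESeq2 called. In the growth hormone arm 6 of 8 differences were below 0 and 1 gene passed, and the median was -0.33 against 0 for all genes. Of the other binding proteins and proteases 6 of 8 were above 0 and none passed, with a median of 0.40. The 3 IGF2 mRNA binding proteins were all above 0 and none passed (median 0.37). In the remaining lists the medians lay between -0.56 and -0.02.

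For diet, edgeR called 0 of 75 of these genes in round and 0 of 75 in sirloin, beside 0.0185% and 0.00918% of all genes. At an unadjusted p under 0.05 edgeR gave 6 in round, beside 4.41% of all genes, and 0 in sirloin, beside 3.91%. DESeq2 called 0 in both (6 and 1 unadjusted, without a DESeq2 share over all genes). The smallest p in round belonged to EIF4E, the cap-binding translation factor, with 64.0, 68.2, 167 and 143 CPM in the controls and 36.7, 41.1, 57.9 and 90.5 CPM in the treated calves. Its difference was -0.95 (SE 0.381; adjusted p = 0.864 by edgeR), and only treated replicate 4 reached into the control range. PTPN1, a phosphatase that acts on INSR, had -0.69 (SE 0.296), and IRS4 had at most 3 reads in any library, so no fold is given. In sirloin the smallest p belonged to NR3C1, the glucocorticoid receptor (-0.47, SE 0.217), STAT5A (0.69, SE 0.319) and SLC2A4, the insulin-responsive glucose transporter GLUT4 (-0.45, SE 0.208), each with an adjusted p of 0.876 by edgeR. The sirloin groups did not overlap for 2 of the 75 genes, SLC2A4 and PTPN11, beside 1.68% of all genes. For the interaction 0 of 76 were called by edgeR or DESeq2, beside 0.00437% of all genes by edgeR. At an unadjusted p under 0.05 edgeR gave 3, beside 3.78% of all genes, and DESeq2 gave 5, to which that share does not apply. The smallest p belonged to SOCS3 (-1.02, SE 0.38), AKT2 (0.45, SE 0.194) and MAP2K1 (0.47, SE 0.214).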

How the data were processed

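Round and sirloin muscle RNA of 8 calves was sequenced. The accounts of the upstream steps differ: the labels name poly(A) selection, STAR, featureCounts, DESeq2 and build ARS-UCD1.2, and the study's methods name removal of rRNA and globin transcripts, HISAT2, Bowtie2 and StringTie. The deposited counts are whole numbers per gene without normalization. The deposited normalized values sum to about 1000000 per library and were taken as the authors' TPM. The authors' comparison tables hold fold changes and p-values and were not used. Symbols came from RefSeq's ARS-UCD2.0 table by gene ID (30762 of 34109 matched), which was used for names only; 0 columns lacked a sample.

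Genes with at least 1 count in the libraries fitted were tested with edgeR 4.0.16 (TMM, glmQLFit, glmQLFTest, R 4.3.3), two-sided, with Benjamini-Hochberg correction over all genes tested. Diet was fitted within each muscle without a block. Muscle and its interaction with diet were fitted over 16 libraries with calf as a block. The labels give both muscles of a calf 1 number, and deviations from the group means correlated by 0.311 to 0.765 within a calf (median 0.564). For muscles of different calves they correlated by -0.524 to 0.456 (median -0.109), so the ranges overlapped. Equal replicate numbers across diets did not pair calves. No 2 libraries shared more than 21.7% of gene counts. Correlations used log2 CPM (prior count 2), genes with a mean of at least 1 CPM, and Python 3.11.15. Tests were tried on simulated data, where more of edgeR's calls were false than the threshold sets, most of all in the fits within calf, so calls near the threshold are uncertain. Alternatives were DESeq2 1.42.0, RLE scaling, filterByExpr, the other block choice, log2(TPM + 0.1), and leaving out each calf. In the RefSeq table IGF1R overlaps PGPEP1L and LOC101907342, and the genes overlapping IGF1, IGF2, IGF2R and INSR had 16 to 30 counts in all 16 libraries; the strand setting is not given in the sources used here. Counting error is small at these depths beside the spread between libraries of a group.

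The members, the lists of other axis genes and the cell type markers were chosen with earlier results of these data known. All 10 members were read in each comparison, although for the interaction only IGF1 and IGFBP3 are given with an interval. Of the other axis genes, those with adjusted p under 0.05 are named, or else the 3 with the smallest p. For 6 members the 3 genes most like them in pattern were found, of which 1 is not reported here.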

Additional observations from a re-analysis of the deposited data

Results flagged for a closer look

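In 5 of 40 groups of 4 libraries (10 genes in 4 groups), 1 library lay apart from the other 3 by Dixon's ratio of gap to range on log2 CPM at the 95% level. Chance alone sets apart about 1 group in 20, and over the 12315 genes with a mean of at least 1 CPM the share was 5.69% of groups. The 5 groups are not independent, since 3 of them hold control replicate 2. In control sirloin, control replicate 2 was lowest for both kinase receptors. IGF1R was 13.7 CPM against 49.2 to 59.3 in the other 3 (ratio 0.872), and INSR was 46.0 CPM against 161 to 206 (ratio 0.835). In control round, the same calf was highest for IGFBP4, at 31.3 CPM against 2.57 to 3.58 (ratio 0.869), in the library with 1550 TPM of fibroblast markers. Control replicate 1 was highest for IGFBP3 in round, at 116 CPM against 49.0 to 56.3 (ratio 0.84). In treated sirloin, treated replicate 3 was lowest for IGFBP6, at 6.28 CPM against 16.7 to 18.1 (ratio 0.922).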

How the results depend on the processing

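The number of genes called over the whole table depended on the test. DESeq2 called 46 genes for diet in round (edgeR 4), 13 in sirloin (edgeR 2), 822 between the muscles (edgeR 122) and 9 for the interaction (edgeR 1). The fits held 21677 genes with at least 1 count for diet in round, 21776 in sirloin, and 22877 between the muscles and for the interaction. Equal replicate numbers do not pair calves across diets, and with the replicate number as a block the diet counts were 2 in round and 0 in sirloin. Without the calf block the counts were 14 between the muscles and 0 for the interaction. Leaving out 1 calf gave 0 to 3 genes for diet in round, 0 to 1 in sirloin, 44 to 368 between the muscles (368 without treated replicate 4, 44 without treated replicate 1) and 0 to 2 for the interaction. RLE scaling and filterByExpr kept each of these counts within 1.5 times. For round against sirloin levels over calves, corrected over the 10 genes only as the design had it (not used above), 4 passed, against 0 without the 2 extreme calves and 0 to 4 with 1 calf left out.

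Among the members, a block on the replicate number gave -0.07 for IGF1 and 0.09 for IGFBP4 in round and 0.82 for IGFBP5 in sirloin, each opposite in sign to the value reported. Without the calf block the muscle difference was -0.08 for IGF1 and -0.01 for IGFBP5. The round to sirloin correlation of IGF2R was -0.20 without the 2 extreme calves. None of these was called in either fit. The muscle calls of CISH, PIK3R1 and EIF4EBP1 were lost without the calf block (adjusted p = 0.731, 0.626 and 0.739 by edgeR), and the block changed no other call of a named gene.

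With 1 calf left out, these values changed sign. For diet in round the ranges were -0.21 to 0.55 for IGF1, -0.61 to 0.10 for IGF1R, -0.09 to 0.42 for IGF2R, -0.56 to 0.18 for IGFBP3, -1.25 to 0.82 for IGFBP4 and -0.78 to 0.63 for IGFBP5. For diet in sirloin they were -0.14 to 0.28 for IGF2, -0.70 to 0.11 for IGF1R, -0.11 to 0.95 for IGFBP4, -1.29 to 2.06 for IGFBP5 and -0.40 to 0.31 for IGFBP6. Between the muscles they were -0.10 to 0.21 for IGF1 and -0.04 to 0.27 for IGF1R. For the interaction they were -0.01 to 0.30 for IGF2, -0.46 to 0.26 for IGF1R, -0.58 to 0.04 for INSR and -0.09 to 0.33 for IRS1. The correlation of IGF2R ran from -0.29 to 0.34. Of 512 values of single genes or pairs with 1 calf left out, 447 kept direction and side of the threshold, as did 226 of 243 under the other alternatives. The cause of these shifts was not tested. The members had at least 70 counts in every library, so counting error is small beside the spread between the 4 libraries of a group. With 1 library per muscle of a calf, differences between calves, dissections and library preparations cannot be told apart.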

Other observations

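The insulin gene INS was listed at 0 in all 16 libraries, and INSRR, the insulin receptor-related receptor, reached 0.0205 TPM at most. IGFBP7, a related protein of low IGF affinity, was among the more abundant of the other axis genes, at 52.0 to 101 TPM in round and 39.4 to 88.3 TPM in sirloin. HTRA1, a protease that can cleave IGF binding proteins, measured 15.7 to 51.8 TPM in round and 10.5 to 36.0 TPM in sirloin. IGF2BP2, which binds IGF2 mRNA and others, measured 2.25 to 8.56 TPM in round and 3.30 to 7.42 TPM in sirloin, above IGF2BP3 at 0.655 to 2.23 TPM in sirloin. IRS2, the partner adaptor of IRS1, had medians of 16.6 TPM in round and 20.8 TPM in sirloin.

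With the 4 group means removed, the genes most like 6 of the members in log2 CPM over the 16 libraries were named among 12091 genes with symbols. These are descriptions; both muscles of a calf share that calf, and the libraries rich in adipocyte or fibroblast markers are included. IGF1 was followed by FST, the activin and myostatin antagonist follistatin (r = 0.93), and KCNE4 (0.92). IGF2 was followed by TTC28 (0.89), ATAT1 (0.88) and MATN2 (0.86), and IGFBP3 by SCARA5 (0.90), CYP1A1 (0.89) and IQCN (0.87). IGFBP4 was followed by CLMP (0.97), GLIPR2 (0.97) and UGDH (0.96), and IGFBP5 by PPFIA4 (0.94), LIPA (0.94) and NFIB (0.93). IGFBP6 was followed by the collagen gene COL5A1 (0.94), PCOLCE, a collagen-processing enhancer (0.94), and NHSL1 (0.94).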
